A study of Oryza sativa with 36 samples.

Results

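The Aux/IAA proteins and the auxin response factors (ARFs) are the paired families of nuclear regulators through which plant cells read the hormone auxin. The genes described here are the 56 rice genes named IAA1 to IAA31 and ARF1 to ARF25, found by symbol or synonym in the gene annotation, and each was followed through 24 h of seed imbibition in endosperm and embryo. A gene was found for 51 of the 56 names, and 43 of those genes had a probe set of their own on the array: 26 Aux/IAA and 17 ARF genes. No gene in the tables used carried IAA22, IAA27, IAA28, ARF11 or ARF20, and IAA11, IAA29, ARF5, ARF6, ARF8, ARF19, ARF21 and ARF25 had no probe set that belonged to them alone. Annotation gives more than 1 of these names to 8 genes, so the gene called ARF23 here is also annotated ARF1, ARF12 is also ARF8, ARF18 is also ARF10, ARF4 is also ARF2, ARF1 is also ARF16, IAA4 is also IAA20, IAA5 is also IAA8 and IAA13 is also IAA1.

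The study put total RNA from 36 samples of rice (Oryza sativa) on Affymetrix rice arrays, in 12 groups of 3: endosperm and embryo of dry seed (0 h, labelled as untreated) and of seed imbibed for 4, 8, 12, 16 and 24 h. Every imbibed seed was kept in the dark at 30 °C, in sterile distilled water that was bubbled with air, no hormone or other agent is named in any label, and 29 of the 36 labels name the cultivar Nipponbare. The labels' growth protocol calls the embryo samples embryonic axis, does not say whether the scutellum stayed with them, and does not say whether the replicates, numbered 1, 2 and 3 in endosperm and 1, 4 and 5 in embryo, came from separate cultures. The spread that the p-values rest on may thus be technical, and the small number of arrays limits the precision.

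Aux/IAA proteins bind ARFs and hold their target genes off by recruiting TOPLESS-type co-repressors. Auxin glues Aux/IAA proteins to the F-box receptors TIR1 and AFB, the Aux/IAA proteins are then degraded, and the ARFs are freed, some of which activate and others of which repress transcription. Many Aux/IAA genes are themselves switched on within minutes of an auxin signal, so the family forms a negative feedback loop. Some GH3 genes, whose enzymes tie auxin to amino acids, are switched on with them. In a germinating cereal grain the embryo resumes growth, while the starchy endosperm is dead storage tissue whose living aleurone layer secretes hydrolases.

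The labelled tissues were checked against markers. All 8 measured storage markers, the glutelins GLUA1, GLUA2, GLUA3 and GLUD1, the allergens RAG1 and RA5, the starch synthase Wx and the regulator NFYB1, were higher in endosperm at 0 h and at 24 h. Of the 6 measured meristem and root markers, 4 were lower in endosperm than in embryo at 0 h and all 6 at 24 h. Each tissue's arrays also carried transcripts of the other's markers. The storage list summed, on a log2 scale, to between 15.72 and 16.01 on endosperm arrays at 24 h and between 15.86 and 16.06 at 0 h, and in embryo to between 7.05 and 7.94 at 24 h, against 11.16 to 11.35 at 0 h. In embryo, 7 of the 8 storage genes fell by 24 h, and NFYB1, the regulator in that list, was near the floor at all 6 embryo times. The meristem list summed to between 6 and 6.9 on endosperm arrays at 24 h and between 5.3 and 5.56 at 0 h, and 3 of its 6 genes were higher at 24 h: OSH1, OSH6 and OSH71, homeobox genes of the shoot meristem (1.24, 1.25 and 1.82 log2). Its members QHB, SCR1 and SHR1 stayed near the floor in endosperm at all times. Marker differences were read from the values as deposited alone, and those near 1 may depend on scaling. Of the 6 secretion markers (AMY1A, AMY3A, AMY3D, R1C-Prx, GAMYB, REP1), all were above the floor in every endosperm group and all but AMY3A in every embryo group. The pericarp list had only CHS1 and CHI measured, both above the floor in all groups. Signal of the array's 3′ control probe sets exceeded that of the 5′ ones by 2.29 to 3.34 log2 in the endosperm group means, lowest at 0 h and highest at 24 h, and by 1.51 to 1.67 in the embryo group means. The part of RNA state and of transcripts from the other tissue in the differences below was not tested unless a value is given.

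Values are the authors' log2 GCRMA signals, in which 1 unit is a doubling, and a level is comparable between samples but not between genes. A gene was called when the limma difference between group means was at least 1 log2 unit with an adjusted p below 0.05 over all 57194 rice probe sets. Array medians lay between 2.72 and 2.93. A group mean within 1 unit of its arrays' mean median, a limit of 3.73 to 3.88, is described as near the floor, and a change that starts there is not measured in full. With 3 arrays in a group, fewer cells of a type and less RNA per cell cannot be told apart in these bulk samples.

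In the embryo, 14 of 26 Aux/IAA genes had risen by 24 h and 3 had fallen (median 1.6, against -0.05 over all probe sets), where 12% of all rice probe sets were called higher and 10.1% lower. Over the 17905 genes with a probe set of their own, those shares were 26.1% and 18.7%. No harvest day held embryo arrays of both dry seed and 24 h, so day and time cannot be fully told apart in this comparison. The 3 largest rises were in IAA12, IAA13 and IAA31, and the 3 genes that fell were IAA1, IAA4 and IAA9. IAA2, IAA8, IAA16, IAA25 and IAA26 were near the floor in all 12 groups, and the array says nothing of their changes.

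The rise came in steps. At 4 h, 8 Aux/IAA genes were already higher than at 0 h and none was lower, beside 7.12% and 4.24% of all probe sets and 14.3% and 7.54% of genes. These were IAA6, IAA9, IAA12, IAA13, IAA23, IAA24, IAA30 and IAA31, and all but IAA9 stayed higher at each later time. At 8 h the counts were 8 and 1 (background 9.57% and 7.1% of probe sets, 20.4% and 13.1% of genes), with IAA7 newly higher and IAA4 newly lower. At 12 h, 11 were higher and 3 lower (background 10.6% and 8.32% of probe sets, 22.8% and 15.4% of genes), and IAA3, IAA17 and IAA18 had joined the risers. At 16 h, 12 were higher, IAA5 being the addition, and 3 were lower (background 11.3% and 9.08% of probe sets, 24.4% and 16.7% of genes). IAA14 and IAA20 were called only at 24 h. Between 4 and 12 h, 7 Aux/IAA genes rose and 3 fell (background 7.08% and 6.14% of probe sets, 16% and 11.5% of genes), and between 12 and 24 h, 5 rose (IAA6, IAA12, IAA13, IAA14 and IAA20) and none fell (background 2.98% and 1.72% of probe sets, 6.38% and 3.35% of genes). Over all 6 times, 19 of the 26 passed the F test with a range of group means of at least 1, as did 29% of probe sets and 57.8% of genes.

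IAA12, reported in rice to bind ARF17 in the control of leaf angle, had the largest change of either family. Its level was 10.33, 9.93 and 9.59 on the embryo arrays at 24 h, against 2.35, 2.85 and 3.1 at 0 h (log2 difference 7.18 ± 0.28 (SE), adjusted p = 2.17e-17). The 0 h level was near the floor, so the change is not measured in full. By 4 h the embryo mean was already 6.21 ± 0.11 (SD), and it stood at 6.72, 8.04 and 8.89 at 8, 12 and 16 h. IAA12 lies next to IAA11 in the annotation of GCF_034140825.1 (ASM3414082v1), and IAA11 had no probe set of its own.

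IAA13, in which a stabilising mutation reduces lateral root formation in rice, climbed more evenly. The embryo arrays read 11.2, 11.5 and 10.83 at 24 h, against 4.01, 5.57 and 5.37 at 0 h, with no overlap (log2 difference 6.2 ± 0.32 (SE), adjusted p = 3.34e-15, 73.3-fold). Its group means at 4, 8, 12 and 16 h were 6.07, 7.66, 9.31 and 10.22, so each successive mean was higher. Its 0 h level was above the floor, and this fold is therefore measured over its whole span.

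IAA30 and IAA31 are neighbouring genes with no gene between them in that assembly. IAA31 had 10.86, 10.74 and 10.62 in embryo at 24 h, against 4.53, 5.87 and 5.3 at 0 h (log2 difference 5.51 ± 0.29 (SE), adjusted p = 4.47e-15, 45.4-fold). IAA30 had 11.32, 11.41 and 10.99, against 6.26, 7.42 and 6.46 (log2 difference 4.53 ± 0.31 (SE), adjusted p = 1.1e-12). The neighbours differed in pace: at 4 h IAA31 stood 3.87 above its 0 h mean and IAA30 1.7, and at 8 h they stood 4.53 and 3.6 above it.

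Other early risers were IAA6, linked in rice to tillering and drought tolerance (1.79 at 4 h and 4.44 at 24 h), IAA24 (2.7 and 2.92) and IAA23, which acts in rice in upkeep of the root quiescent centre (1.28 and 1.97). IAA23 is the least certain of these, since its other probe sets were not called (0.79 and 0.03 at 24 h) and its 3 embryo arrays at 24 h spread over 5.65, 4.28 and 4.01. IAA6 and IAA23 began near the floor.

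IAA3 and IAA17, well above the floor in dry embryo, were called higher only from 12 h on. At 8 h their embryo means were 10.4 and 10.6, against 10.0 and 9.8 at 0 h, and neither was called. IAA3 differed from 0 h by -0.74 at 4 h, not called, and had 12.03, 12.05 and 11.93 at 24 h, against 9.87, 10.11 and 10.0 at 0 h (log2 difference 2.01 ± 0.17 (SE), adjusted p = 4.68e-11). IAA17 gave -0.24 at 4 h, not called, and 2.17 ± 0.17 (SE) at 24 h. IAA7 was near the floor at 0 and 4 h and was highest at 16 h (6.39, 3.74 above 0 h).

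IAA14 and IAA20 came last. IAA14 read 6.58, 6.86 and 6.08 on the 24 h embryo arrays, against 3.09, 3.29 and 3.43 at 0 h (log2 difference 3.24 ± 0.13 (SE), adjusted p = 2.28e-17), after a group mean of 3.49 at 16 h that was near the floor, as at all earlier times. IAA20 had 5.04, 5.93 and 4.92, against 2.81, 2.82 and 2.94 (log2 difference 2.44 ± 0.18 (SE), adjusted p = 4.69e-12), with 1 of the 24 h arrays about 1 log2 unit above the other two.

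Of the 3 Aux/IAA genes that fell in embryo, IAA4 was first called lower at 8 h, and IAA1 and IAA9 at 12 h. IAA1, whose overexpression changes responses to auxin and brassinosteroid in rice, held until 4 h and then fell to 8.87, 8.72 and 9.13 at 24 h, against 10.37, 10.44 and 10.66 at 0 h (log2 difference -1.58 ± 0.09 (SE), adjusted p = 6.89e-14). IAA4, whose overexpression makes rice less sensitive to auxin, fell to 2.98, 3.16 and 3.88, against 6.64, 6.04 and 6.63 (log2 difference -3.09 ± 0.23 (SE), adjusted p = 9.3e-12), and ended near the floor. IAA9 was the single member called in both directions: its embryo mean was 1.86 above 0 h at 4 h (adjusted p = 5.59e-07) and differed from it by -1.64 at 16 h. At 24 h IAA9 read 5.38, 5.39 and 5.23, against 6.53, 5.71 and 7.09 at 0 h, and the groups did not overlap, though the lowest dry array lay near the imbibed ones (log2 difference -1.11 ± 0.24 (SE), adjusted p = 0.000365). Without embryo replicate 5 at 0 h that difference was -0.79 and no longer called, nor was it under spike-in centring (-0.67) or with the 6 arrays fitted alone (adjusted p = 0.0928).

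**Figure D1:**
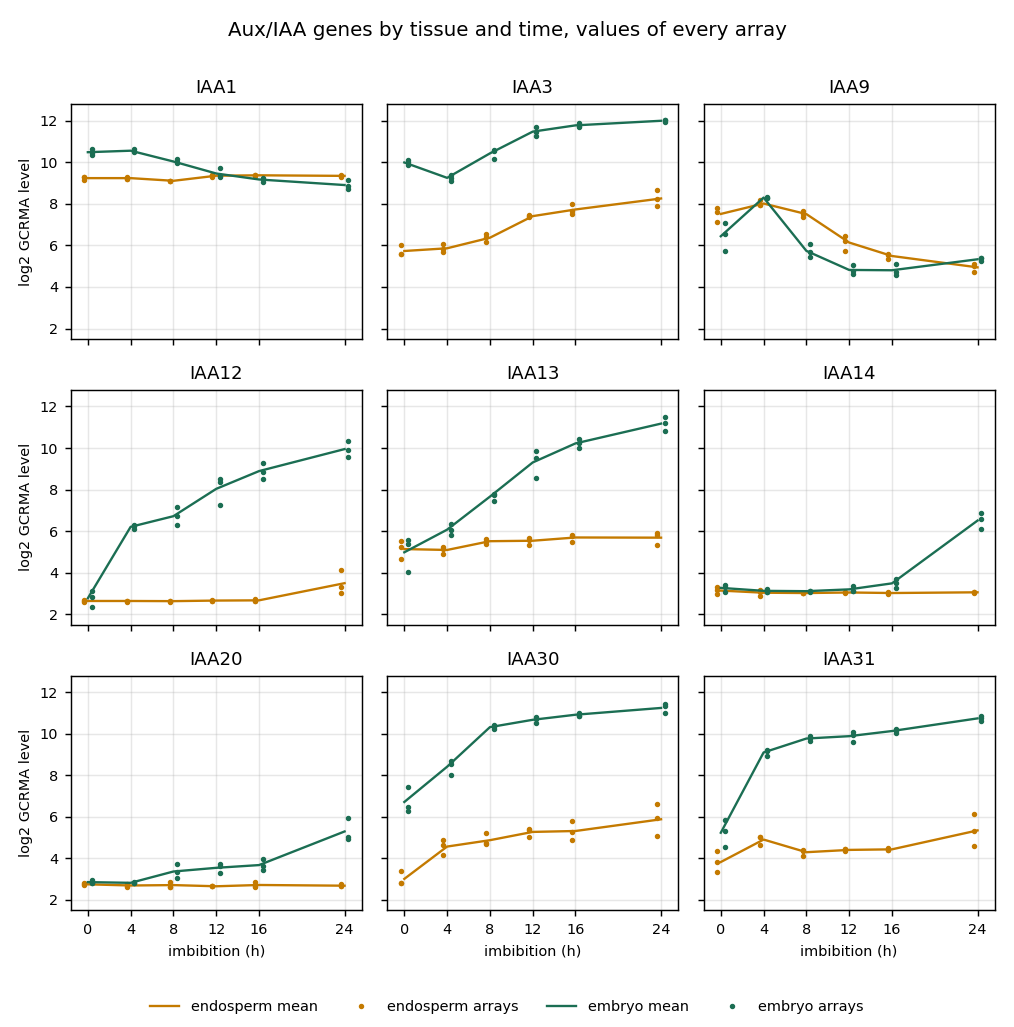
Levels of 9 Aux/IAA genes (log2 GCRMA, vertical axis) against hours of imbibition, with a point for every array and a line through the 3-array means of endosperm (orange) and embryo (green). IAA12, IAA13, IAA30 and IAA31 climb in embryo to means between 9.95 and 11.24 at 24 h, IAA14 and IAA20 leave the floor only at 24 h, and IAA9 peaks at 4 h.

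Of the ARF genes, 16 of 17 were above the floor in dry embryo. By 24 h, 4 of 17 had risen (ARF9, ARF10, ARF12 and ARF17), 2 had fallen (ARF2 and ARF24) and 11 were not called. These shares, 23.5% higher and 11.8% lower, were not above those of all genes (26.1% and 18.7%, or 12% and 10.1% of probe sets). In a family of 17, 1 gene alone is 5.88%. The median change was 0.41, against -0.05 over all probe sets. Under centring on the 75th percentile it was 0.03, against -0.43 over all probe sets. ARF13 was the 1 ARF near the floor at all embryo times. At 4 h, 3 ARF genes (ARF9, ARF12, ARF17) were higher and 1 (ARF24) lower, which is 17.6% and 5.88%, near the 14.3% and 7.54% of genes. From 8 to 16 h, 5 were higher at each time and 2 lower, ARF10 being higher throughout, ARF18 at 8 h and ARF3 at 12 and 16 h; these were 29.4% higher and 11.8% lower, where 20.4%, 22.8% and 24.4% of genes were higher and 13.1%, 15.4% and 16.7% lower at 8, 12 and 16 h. Between 4 and 12 h 1 ARF (ARF3) rose and none fell, and between 12 and 24 h none was called (the no-minimum-fold count over both families was 20, against 5 with it). Over the 6 times 9 of 17 (52.9%) passed the F test, a share near the 57.8% of genes.

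ARF9 made the largest rise of the family and made it by 4 h. The embryo arrays had 8.42, 8.63 and 8.48 at 24 h, against 6.24, 6.0 and 5.85 at 0 h (log2 difference 2.48 ± 0.17 (SE), adjusted p = 1.04e-12), and the 4 h mean of 8.87 ± 0.21 (SD) was the highest of the 6. ARF12, which promotes root elongation in rice, had 9.18, 9.19 and 9.27, against 7.55, 7.22 and 7.0 (log2 difference 1.95 ± 0.19 (SE), adjusted p = 1.52e-09), and had made 1.15 of that by 4 h. ARF17 peaked at 8 h, 2.78 above 0 h, and stood 1.61 above it at 24 h. ARF10 read 6.91, 6.59 and 7.09 in embryo at 24 h, against 5.22, 4.38 and 5.25 at 0 h (log2 difference 1.91 ± 0.19 (SE), adjusted p = 2.48e-09), with 1 dry array lower than the other two.

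ARF2 and ARF24 fell while these rose. ARF2, a relative of Arabidopsis ETTIN, read 7.88, 7.9 and 8.11 at 24 h, against 9.82, 9.97 and 10.43 at 0 h (log2 difference -2.11 ± 0.11 (SE), adjusted p = 6.59e-15), and most of the fall was over by 8 h (-1.93). ARF24, reported in rice to act with ARF23 on the actin-binding protein RMD, read 7.46, 7.36 and 7.37, against 9.57, 9.66 and 9.69 (log2 difference -2.24 ± 0.1 (SE), adjusted p = 1.81e-16), and was called lower at all 5 later times. Storage transcripts fell in the same embryo arrays, and their part in these falls was not tested. At 0 h both genes were lower in endosperm than in embryo (group means 6.43 against 10.07 for ARF2, and 7.24 against 9.64 for ARF24).

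**Figure D2:**
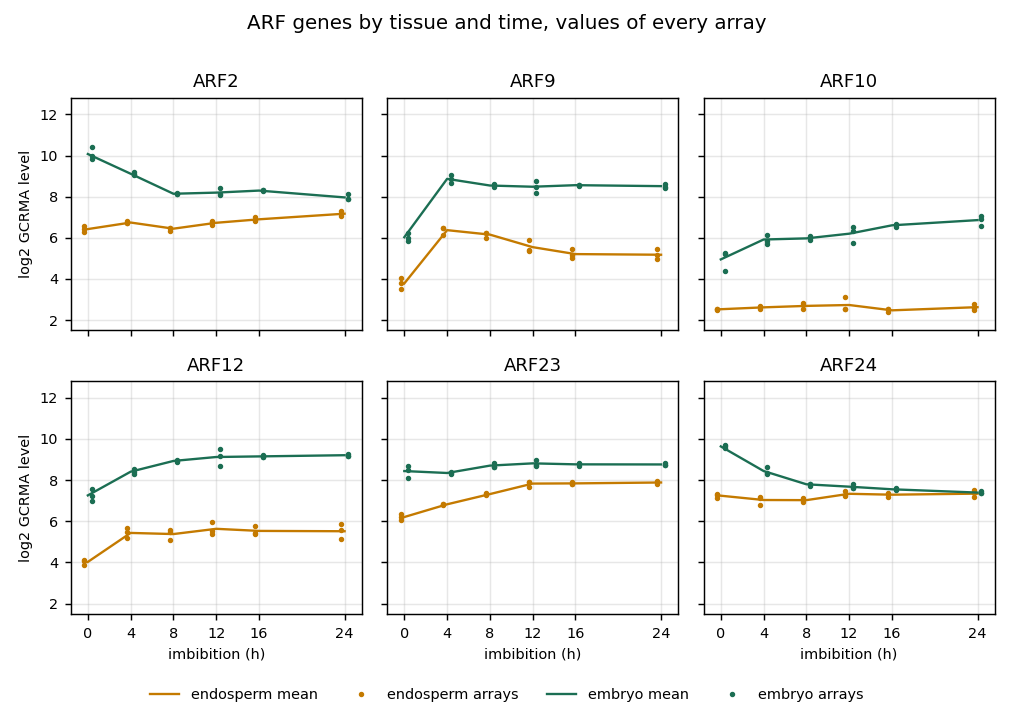
Levels of 6 ARF genes (log2 GCRMA, vertical axis) against hours of imbibition, with a point for every array and a line through the 3-array means of endosperm (orange) and embryo (green). ARF9 and ARF12 rise in both tissues by 4 h, ARF2 and ARF24 fall in embryo, ARF23 rises in endosperm, and ARF10 stays near the floor in endosperm.

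In the endosperm, of the 26 Aux/IAA genes, 10 were near the floor at 24 h and 14 at 0 h. Their median 24 h change was 0.3, against -0.03 over all probe sets. Under centring on the 75th percentile it was -0.04, against -0.37 over all probe sets. By 24 h, 8 had risen and 2 had fallen, where 7.33% and 4.57% of all probe sets, and 17.2% and 8.57% of genes, were called. All 10 were also called in the same direction in embryo at 24 h: IAA3, IAA6, IAA7, IAA17, IAA18, IAA24, IAA30 and IAA31 higher, IAA4 and IAA9 lower. The rises of IAA6 and IAA18 were not called under at least 1 of 3 other scalings of the arrays. At 4 h, 3 (IAA24, IAA30, IAA31) were higher and none lower (background 3.27% and 0.261% of probe sets, 6.95% and 0.307% of genes), and at 8 h 2 (IAA24 and IAA30) were higher (background 5.63% and 2.52% of probe sets, 12.7% and 4.64% of genes). At 12 h and at 16 h, IAA3, IAA17 and IAA30 were higher and IAA4 and IAA9 lower (background 6.51% and 3.7% of probe sets at 12 h and 6.57% and 3.86% at 16 h, or 15.2% and 6.95%, and 15.4% and 7.46%, of genes). At 8, 12 and 16 h the share of Aux/IAA genes that were higher (7.69%, 11.5% and 11.5%) was thus not above that of all genes, and it rested on few genes. Between 4 and 12 h, 2 rose and 3 fell (background 4.02% and 3.26% of probe sets, 9.6% and 6.3% of genes), and between 12 and 24 h 2 rose (IAA7 and IAA18) and 2 fell (IAA4 and IAA9; background 1.19% and 0.699% of probe sets, 2.68% and 1.47% of genes). The last count, 4 with no ARF among them, was 2 without endosperm replicate 1 at 24 h and 8 without replicate 2. Over the 6 times 10 Aux/IAA and 7 ARF genes passed the F test (38.5% and 41.2%), near the 36.8% of genes, and 17.2% of probe sets did.

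IAA30 rose most in endosperm, with 6.61, 5.08 and 5.95 at 24 h, against 2.82, 2.81 and 3.4 at 0 h (log2 difference 2.87 ± 0.31 (SE), adjusted p = 2.03e-08), from a level near the floor. IAA3 had 8.68, 7.88 and 8.22, against 5.59, 5.57 and 6.03 (log2 difference 2.53 ± 0.17 (SE), adjusted p = 2.94e-12, 5.77-fold), well above the floor throughout. IAA31 had 6.14, 4.58 and 5.31, against 3.81, 3.32 and 4.34 (log2 difference 1.52 ± 0.29 (SE), adjusted p = 0.000102), and is the least even of the risers, since its lowest 24 h array lay only slightly above its highest 0 h array. The adjusted p of IAA31 was 0.0985 when the 6 arrays were fitted alone. IAA6 was called narrowly (1.01), stayed near the floor, and was not called without endosperm replicate 1 at 0 h (0.998) or at 24 h (0.93).

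Some risers had the 3 endosperm arrays of 24 h in the same order as some meristem markers. OSH1 read 5.14, 4.07 and 4.36 on replicates 1, 2 and 3, OSH6 4.83, 3.67 and 4.25 and OSH71 5.17, 3.96 and 4.51, so replicate 1 was the highest and replicate 2 the lowest for each. SCR1, near the floor, had that order too, and QHB and SHR1, also near the floor, had others. Of the 14 members higher in endosperm at 24 h, 9 (6 Aux/IAA and 3 ARF genes) had the replicates in that same order, among them IAA30, IAA31, IAA3 and IAA17, and 5 did not. Of all probe sets higher in endosperm at 24 h, 36.9% had that order. IAA12, not called in endosperm, had that order too, with 4.15, 3.0 and 3.33. The part of embryo transcripts in these rises was not tested. IAA18, ARF12, ARF17, ARF18 and IAA6 had another order, and ARF23, though in that order, spanned only 7.95, 7.82 and 7.89.

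IAA9 and IAA4 fell in endosperm. IAA9 read 4.72, 5.1 and 5.02 at 24 h, against 7.63, 7.79 and 7.13 at 0 h (log2 difference -2.57 ± 0.24 (SE), adjusted p = 1.87e-09), after a 4 h mean of 8.02 ± 0.14 (SD) that was 0.5 above 0 h and not called. IAA4 read 3.26, 3.9 and 4.28, against 6.28, 6.24 and 6.13 (log2 difference -2.4 ± 0.23 (SE), adjusted p = 3.66e-09). Neither group pair overlapped.

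Among the ARF genes in endosperm, 6 of 17 had risen by 24 h (ARF3, ARF9, ARF12, ARF17, ARF18 and ARF23), none had fallen, and the median was 0.75 (0.41 to 0.96 over 3 other scalings, under at least 1 of which ARF3, ARF17 and ARF18 were not called). That is 35.3% higher and 0% lower, where 17.2% and 8.57% of genes (7.33% and 4.57% of probe sets) were called. At 4 h, 4 were higher (ARF9, ARF12, ARF17, ARF18), and from 8 to 16 h ARF23 made 5, none being lower at any time. These are 23.5% at 4 h and 29.4% from 8 to 16 h, where 6.95% of genes were higher at 4 h and 12.7%, 15.2% and 15.4% at 8, 12 and 16 h. Between 4 and 12 h ARF23 alone was called among the ARF genes (1.01). Only ARF10 of the family was near the floor in all endosperm groups.

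ARF23 is the ARF that rose most in endosperm. It read 7.95, 7.82 and 7.89 at 24 h, against 6.05, 6.22 and 6.35 at 0 h (log2 difference 1.68 ± 0.1 (SE), adjusted p = 8.51e-13). Its second probe set, whose name marks possible cross-hybridisation, rose by as much (1.74). ARF12 had 5.87, 5.56 and 5.12, against 3.9, 4.12 and 4.06 (log2 difference 1.49 ± 0.19 (SE), adjusted p = 4.2e-07). ARF9 had 5.44, 4.95 and 5.15, against 3.53, 4.05 and 3.79 (log2 difference 1.39 ± 0.17 (SE), adjusted p = 1.51e-07), and had been higher still at 4 h, with a mean 2.59 above 0 h. ARF17 was 2.15 above 0 h at 8 h and 1.07 at 24 h, a value that fell below the threshold without endosperm replicate 1 at 0 h (0.80) or at 24 h (0.99), and with harvest day as a block (0.97). For ARF9, ARF17 and ARF18 the endosperm mean was highest at 4 or 8 h and had come part of the way down by 24 h.

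**Figure D3:**
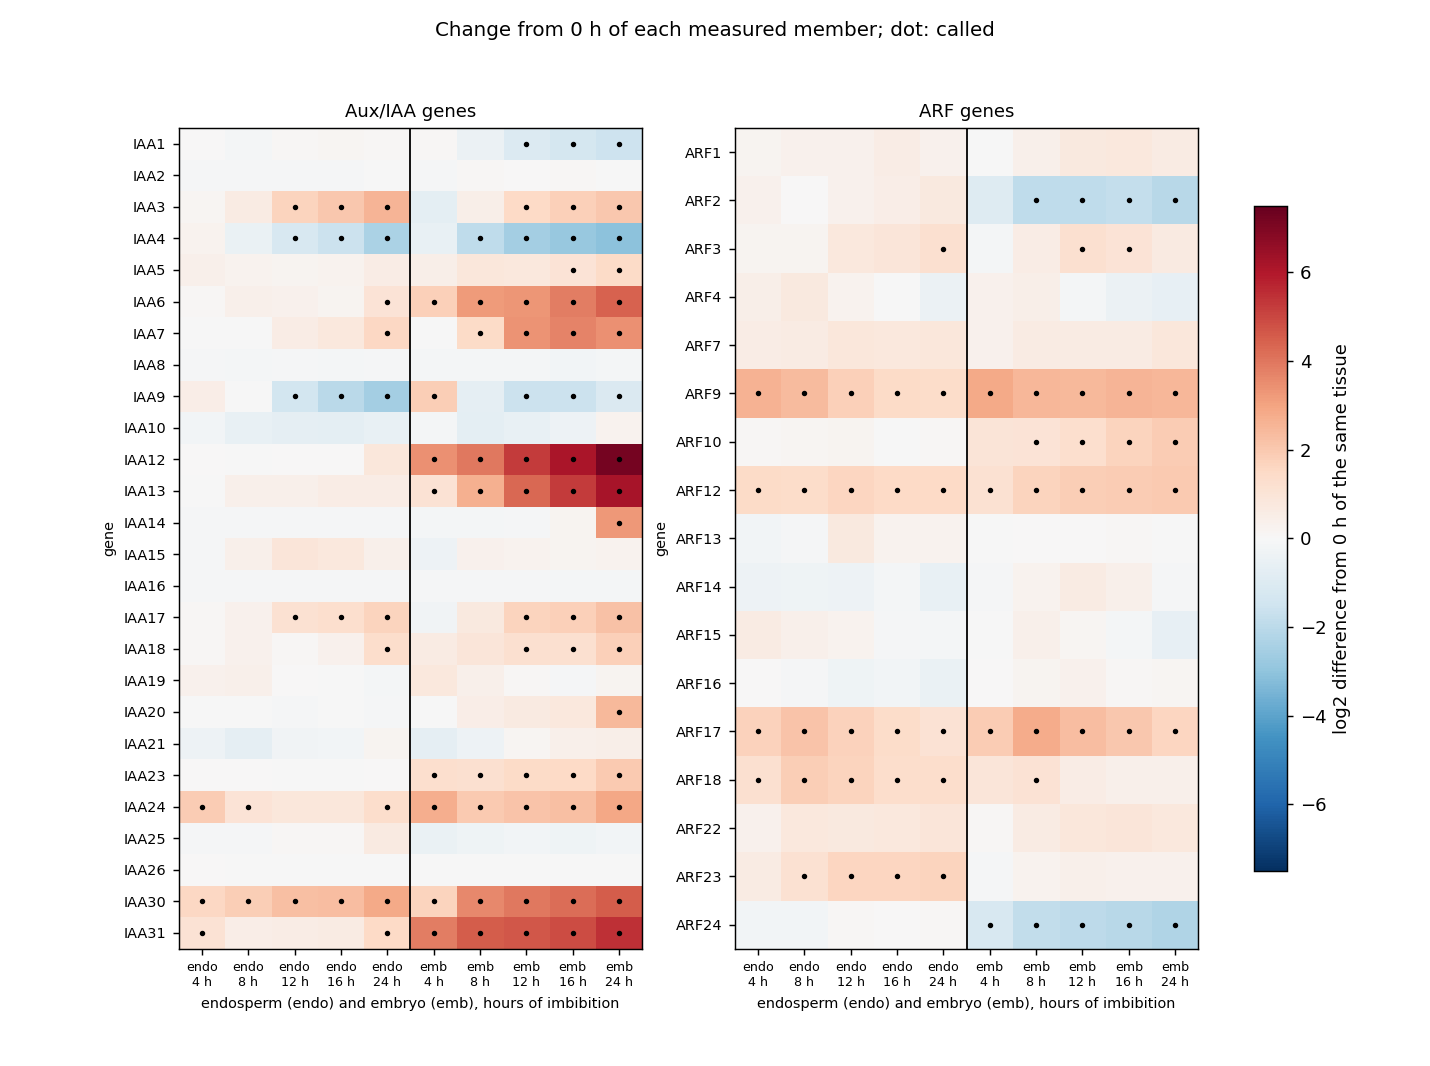
Log2 difference from 0 h of the same tissue (colour, red higher and blue lower) for each measured Aux/IAA gene (left) and ARF gene (right), with endosperm columns left of embryo columns and later times to the right. A black dot marks a call: 8 Aux/IAA and 6 ARF genes are higher at 24 h in endosperm, against 14 and 4 in embryo.

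Set side by side, between 24 and 26 of the 43 members were lower in endosperm than in embryo at each time. At 0 h, 1 Aux/IAA gene (IAA9) was higher in endosperm and 10 of 26 were lower, with 2 ARF genes higher and 14 of 17 lower, where 2.37% of probe sets were higher and 23.2% lower. Over genes with a probe set of their own the shares were 4.28% and 46.5%, so the Aux/IAA share at 0 h (38.5% lower) was below that of all genes and the ARF share (82.4%) above it. At 24 h no Aux/IAA gene was higher and 16 were lower, with 2 ARF genes higher and 10 lower (background 2.98% and 22.5% of probe sets, 5.79% and 46.3% of genes). The Aux/IAA median was -2.17 at 24 h and -0.16 at 0 h, and the ARF median -1.46 and -2.23. Over all genes with a probe set of their own the median was -0.88 at both times. Between those times the counts changed little: 0 Aux/IAA higher and 12 lower at 4 h, 2 and 14 at 8 h, 2 and 13 at 12 h, and 1 and 13 at 16 h. For ARF genes, 2 were higher at each of these times and 14, 12, 12 and 11 were lower. The background at 4, 8, 12 and 16 h was 1.71%, 2.22%, 2.53% and 2.89% higher, and 23.8%, 23.5%, 23.4% and 23.3% lower, of probe sets. Of genes, 48.2%, 48.3%, 47.6% and 47.8% were lower and 3.06%, 4.07%, 4.74% and 5.32% higher, and the Aux/IAA share lower, between 46.2% and 53.8% at these times, was near that.

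These counts depend on how the tissues are put on a common scale, since the 75th percentile of the arrays was 4.12 to 4.53 in endosperm and 5.21 to 5.77 in embryo, and the array medians were close. With the 75th percentiles set equal, which moves the median of all probe sets by about as much as the gap (1.1 at 0 h and 1.19 at 24 h, against -0.07 and -0.02), 10 members were higher and 18 lower at 24 h, in place of 2 and 26, and 15 and 14 at 0 h, in place of 3 and 24. At 4, 8, 12 and 16 h that scaling gave 12 higher and 13 lower, 11 and 16, 13 and 18, and 11 and 17, in place of 2 and 26, 4 and 26, 4 and 25, and 3 and 24. Quantile normalization gave 5 higher and 19 lower at 24 h and 6 and 14 at 0 h. The Aux/IAA median at 0 h turned positive under both (1.003 and 0.01), and at 24 h it stayed negative (-0.95 and -1.28). The ARF median stayed negative under both but came nearer 0, at -0.25 under each at 24 h and -1.07 and -0.83 at 0 h. By construction, 75th percentile centring moved each family median by the same amount as the median of all probe sets. Of the 27 calls at 0 h, 16 were made the same way under every scaling tried. Called the same way at 24 h under every scaling were 20 of the 28: 13 Aux/IAA genes lower (IAA3, IAA5, IAA6, IAA12, IAA13, IAA14, IAA17, IAA18, IAA20, IAA21, IAA24, IAA30, IAA31), 5 ARF genes lower (ARF9, ARF10, ARF12, ARF15, ARF17) and 2 higher (ARF13, ARF14). Of the 2 harvest days that hold both tissues, 1 allows a comparison at 0, 4, 8 and 12 h and the other at 16 and 24 h. Each such comparison has 1 array of each tissue. Within these days every called member differed in the called direction (28 of 28 at 24 h, 27 of 27 at 0 h). Those arrays also entered the fit that made the calls, so this is no separate evidence, and it does not bear on the scaling.

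The largest tissue gaps at 24 h were in genes that had risen in embryo. IAA12 read 4.15, 3.0 and 3.33 in endosperm and 10.33, 9.93 and 9.59 in embryo (log2 difference -6.46 ± 0.28 (SE), adjusted p = 6.41e-17). IAA13 read 5.89, 5.33 and 5.83 in endosperm and 11.2, 11.5 and 10.83 in embryo (log2 difference -5.49 ± 0.32 (SE), adjusted p = 2.15e-14). At 0 h neither was called (-0.13 and 0.16), so these gaps opened during imbibition. IAA31 read 6.14, 4.58 and 5.31 in endosperm and 10.86, 10.74 and 10.62 in embryo (log2 difference -5.39 ± 0.29 (SE), adjusted p = 3.84e-15).

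Among ARF genes the gaps were mostly there in dry seed. ARF10 read 2.81, 2.51 and 2.58 in endosperm, near the floor, and 6.91, 6.59 and 7.09 in embryo at 24 h (log2 difference -4.23 ± 0.19 (SE), adjusted p = 1.82e-16), and the difference was -2.42 at 0 h. ARF12 read 5.87, 5.56 and 5.12 in endosperm and 9.18, 9.19 and 9.27 in embryo (log2 difference -3.7 ± 0.19 (SE), adjusted p = 2.66e-15), against -3.23 at 0 h. ARF9 read 5.44, 4.95 and 5.15 in endosperm and 8.42, 8.63 and 8.48 in embryo (log2 difference -3.33 ± 0.17 (SE), adjusted p = 1.59e-15), against -2.25 at 0 h. Lower in endosperm at all 6 times were 10 ARF genes and 8 Aux/IAA genes (IAA3, IAA5, IAA17, IAA18, IAA21, IAA24, IAA30, IAA31). This holds for the values as deposited: with the 75th percentiles set equal, IAA5, IAA18, IAA31, ARF3, ARF7, ARF16 and ARF22 were not called lower at 0 h, and ARF3, ARF7, ARF16, ARF18 and ARF22 were not at 24 h.

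ARF13 and ARF14 ran the other way and were higher in endosperm at all 6 times. ARF14, in rice a target of the trans-acting small RNAs that restrain ETTIN-like ARFs, read 6.7, 7.29 and 6.86 in endosperm and 5.29, 5.08 and 5.23 in embryo at 24 h (log2 difference 1.75 ± 0.15 (SE), adjusted p = 7.94e-11), and the difference at 0 h was 2.18 ± 0.15 (SE). ARF13 had endosperm means between 3.56 and 4.49, partly near the floor, and embryo means between 2.11 and 2.22, all near it. IAA9 was higher in endosperm at 0, 8 and 12 h (1.07, 1.77 and 1.32) and IAA4 at 8, 12 and 16 h (1.17, 1.14 and 1.03). The 0 h difference of IAA9 was not called without embryo replicate 4 at 0 h (0.71) or without endosperm replicate 2 at 0 h (0.94), nor with the 6 arrays fitted alone (adjusted p = 0.0766).

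**Figure D4:**
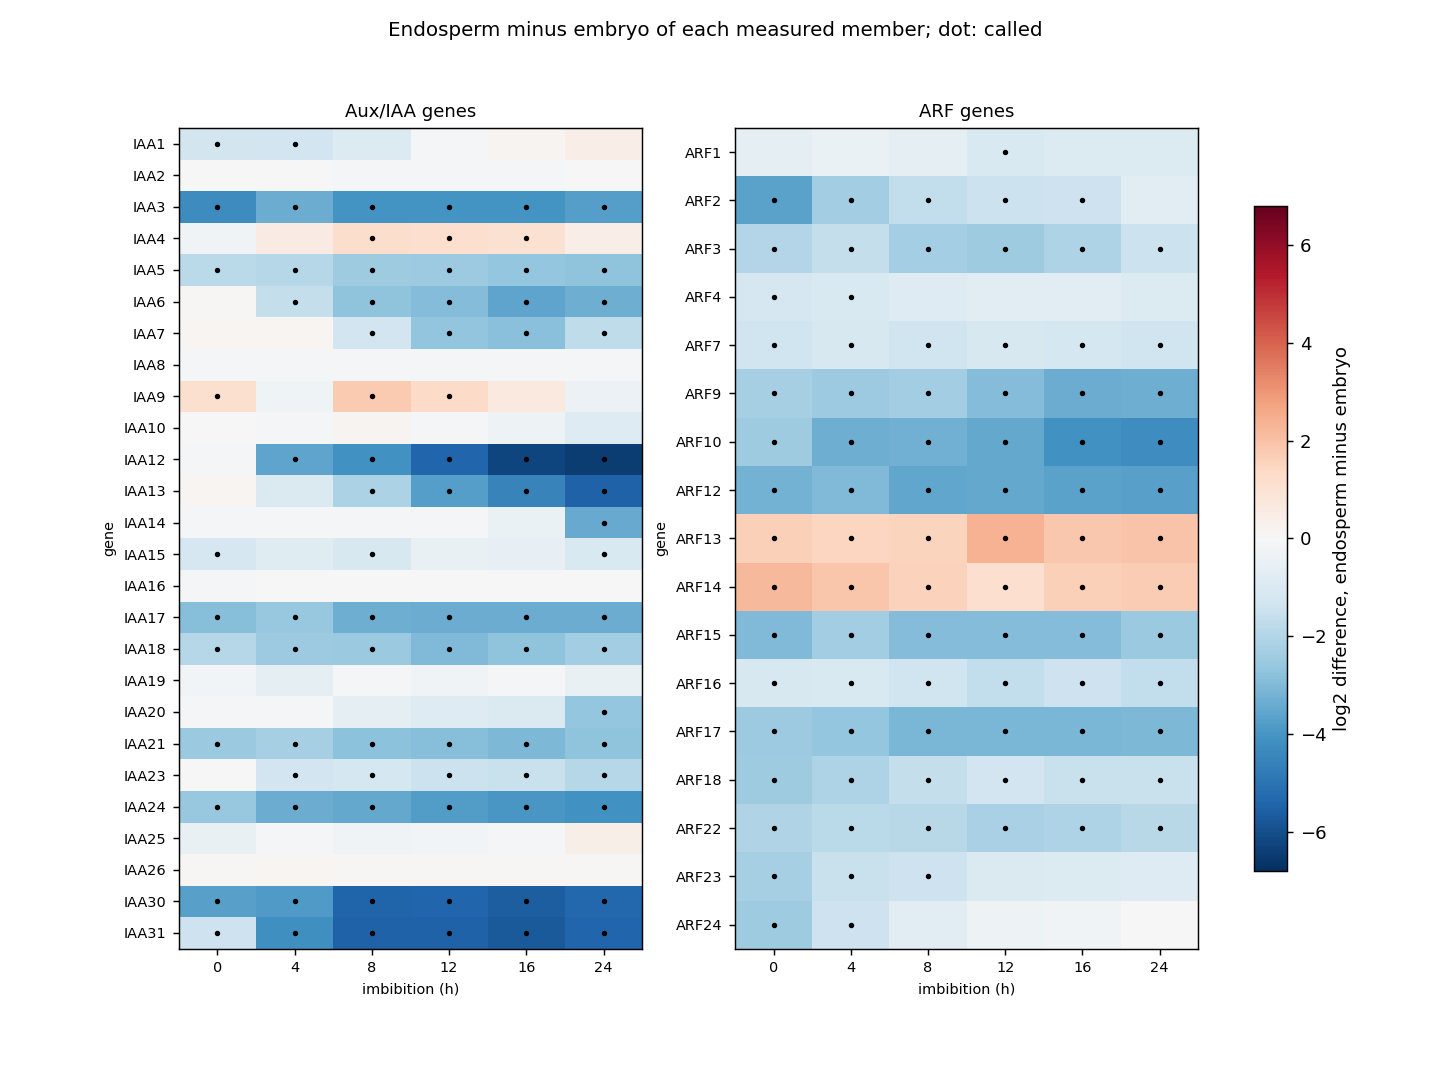
Log2 difference, endosperm minus embryo (colour, blue lower and red higher in endosperm), for each measured Aux/IAA gene (left) and ARF gene (right) at 0 to 24 h of imbibition, with a black dot for a call. IAA12, IAA13 and IAA6 deepen from no call at 0 h, most ARF genes are lower from 0 h on, and ARF13 and ARF14 are higher throughout.

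The difference of the 24 h changes between tissues, which an equal offset between the tissues' scales leaves as it is, was called for 17 members. In 11 Aux/IAA genes the endosperm change was the lower and in 1 (IAA1) the higher, beside 7.69% and 7.69% of all probe sets and 15.9% and 14.8% of genes. In ARF genes the counts were 2 lower (ARF9, ARF10) and 3 higher (ARF2, ARF23, ARF24). The widest difference was in IAA12 (-6.33 ± 0.39, SE, adjusted p = 2.34e-12), then IAA13 (-5.65 ± 0.45) and IAA31 (-3.98 ± 0.4). Of the 17, 14 kept their call under all 3 other scalings, and IAA7, IAA30 and ARF23 did not. The difference for IAA30 had an adjusted p of 0.0798 with the compared arrays fitted alone. The difference for ARF9 (-1.09) fell just under 1 without embryo replicate 5 at 0 h, endosperm replicate 2 at 0 h or endosperm replicate 2 at 24 h (-0.996, -0.96 and -0.97), and that for IAA9 (-1.46) had an adjusted p of 0.0523 with harvest day as a block.

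In 5 of the 17 the 2 changes had opposite signs, though in none was the endosperm change itself called. ARF2 read 7.33, 7.15 and 7.05 in endosperm at 24 h, against 6.43, 6.27 and 6.57 at 0 h (0.75 ± 0.11, SE), beside the fall of -2.11 in embryo, and the difference was 2.86 ± 0.16 (adjusted p = 2.71e-13). ARF24 read 7.5, 7.37 and 7.16, against 7.15, 7.26 and 7.33 (0.1 ± 0.1), and the difference was 2.35 ± 0.14. IAA1 read 9.32, 9.39 and 9.34, against 9.13, 9.31 and 9.28 (0.11 ± 0.09), and the difference was 1.69 ± 0.13. At 24 h endosperm minus embryo was -0.79, -0.05 and 0.44 for ARF2, ARF24 and IAA1, none called, though the second probe set of ARF2 was (-1.13). At 0 h it was -3.65, -2.4 and -1.25, all called, but the IAA1 value was -0.081 with the 75th percentiles set equal and -0.015 after quantile normalization. IAA14 read 3.06, 3.08 and 3.02, against 2.97, 3.15 and 3.29, and IAA20 2.66, 2.75 and 2.65, against 2.8, 2.7 and 2.75, all near the floor, so their negative signs in endosperm carry no direction (differences -3.32 ± 0.18 and -2.51 ± 0.25).

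**Figure D5:**
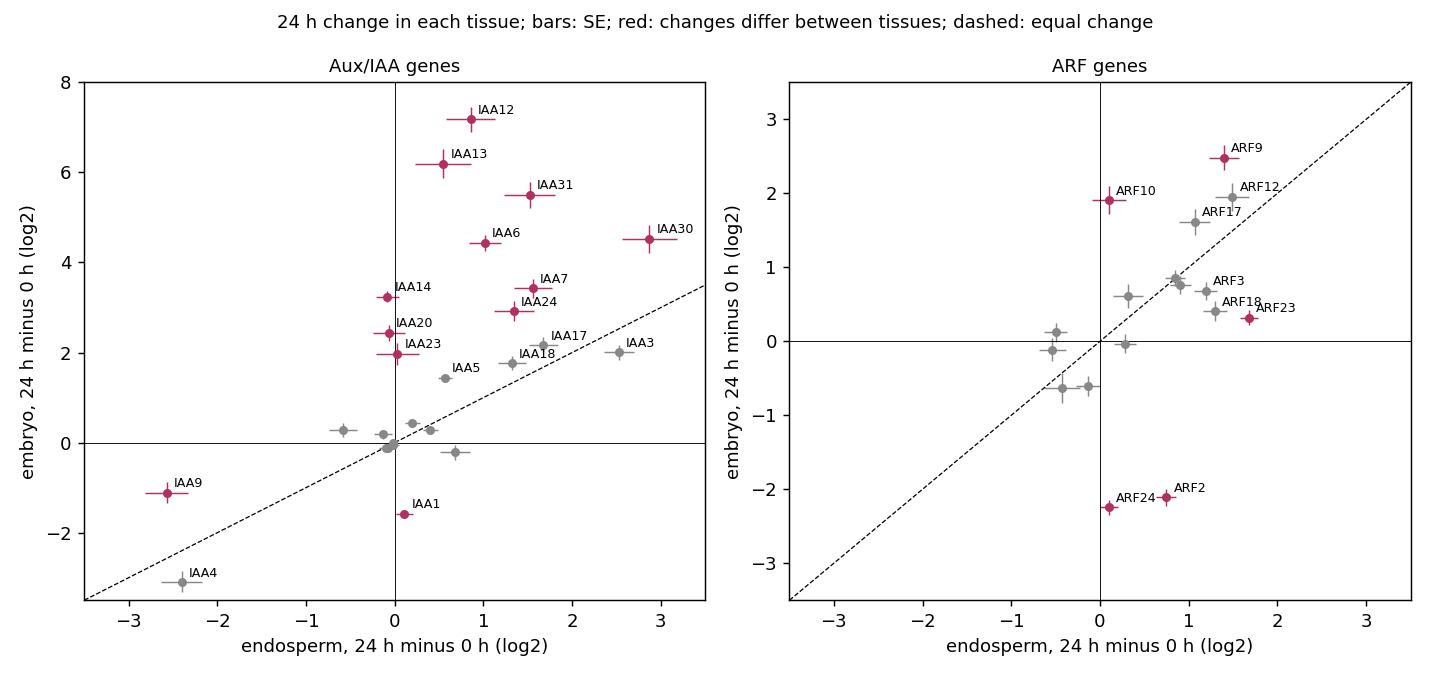
Log2 change from 0 to 24 h in endosperm (horizontal axis) and embryo (vertical axis) for each Aux/IAA gene (left) and ARF gene (right), with SE bars. Red points are the 12 Aux/IAA and 5 ARF genes whose changes differ between the tissues, and points on the dashed line changed equally in both.

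By class, as known for rice from outside these data, 3 of the 9 activator ARFs were measured. ARF12 and ARF17, both also known targets of miR167, rose in both tissues at 24 h, and ARF16, which acts in phosphate responses, was called in neither (-0.5 in endosperm and 0.12 in embryo). All 3 were lower in endosperm than in embryo at 24 h, though the ARF16 difference was not called under 75th percentile or quantile scaling. Of the miR160 targets measured, ARF10 rose in embryo, ARF18 rose in endosperm (1.3 ± 0.13, SE), and ARF22 was called in neither (0.91 in endosperm and 0.76 in embryo). Of the 4 targets of trans-acting small RNAs, ARF2 fell in embryo, ARF3 rose in endosperm (1.19 ± 0.13), and ARF14 and ARF15 were not called in either tissue at 24 h. ARF4, a negative regulator of grain size, was not called against 0 h at any time, and neither were ARF1, ARF7 and ARF13.

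The wider pathway was read from 21 measured genes. In endosperm 6 were higher and 1 lower at 24 h, and in embryo 10 and 1. The shares higher were 28.6% in endosperm, where 17.2% of genes were, and 47.6% in embryo, where 26.1% of genes were. In each tissue 4.76% were lower, against 8.57% of genes in endosperm and 18.7% in embryo. The lists were short, and no TIR1 or AFB receptor was matched to a probe set. Calls of these genes were read from the values as deposited alone, and those near 1 may depend on scaling. Of the 10 genes listed for conjugation and breakdown, GH3 genes by name and DAO, 3 rose and 1 fell in endosperm. In embryo 6 rose and 1 fell. Which of these GH3 enzymes act on auxin was not tested. GH3.2 rose by 2.52 in endosperm and 4.91 in embryo, and GH3-8 by 3.83 and 4.42. GH3.6 rose in both tissues (1.87 in endosperm and 2.13 in embryo), while GH3.4 and GH3.1 rose in embryo (2.9 and 2.74) and were not called in endosperm. GH3.2 had risen by 4 h, with means of 6.14 ± 0.24 (SD) in endosperm and 6.4 ± 0.36 in embryo. DAO, the dioxygenase that oxidises auxin, fell in both (-1.58 in endosperm and -2.63 in embryo).

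Synthesis was represented by FIB, a tryptophan aminotransferase of the TAA1 family, and YUCCA1. FIB rose by 1.19 in endosperm and 4.66 in embryo at 24 h, and in embryo its mean was 4.11 at 4 h and 6.33 at 8 h. YUCCA1 was near the floor throughout. Of 5 efflux carriers, PIN2 and PIN3A rose in embryo (2.75 and 1.52) and PIN9 in endosperm (1.5), where its level was 4.36, 4.64 and 4.3 at 24 h, against 2.92, 2.97 and 2.93 at 0 h. In embryo PIN9 stayed near the floor at 2.61. Among co-repressors, TPR2 was called higher in embryo (2.25) and TPR3 in endosperm (1.25), while ASP1 was near the floor. In the other tissue the means of TPR2 and TPR3 also went up from 0 to 24 h, by less than 1. They were 6.71 and 7.51 for TPR2 in endosperm, and 8.9 and 9.62 for TPR3 in embryo. SAUR39, an early auxin response gene, was near the floor in all groups.

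Among the members, 9 had more than 1 probe set, and the brightest was used. For ARF2, ARF23 and IAA4 the probe sets gave the same calls at 24 h against 0 h. For ARF4 the other probe set was called lower in endosperm than in embryo at 24 h (-1.55), and the one used was not (-0.92). For IAA1, IAA3 and IAA31 the second probe set was near the floor and not called, and averaging probe sets brought the 24 h embryo changes of IAA1, IAA3 and IAA23 below 1 (-0.999, 0.62 and 0.93), and the endosperm change of IAA31 too (0.75). It also brought the differences of changes of IAA1 and IAA23 below 1 in size (0.96 and -0.95). Which probe set reports the transcript was not tested. IAA17 is read by a probe set whose name marks probes shared within a gene family, and IAA23 by one whose name marks possible cross-hybridisation, so signal from related genes cannot be told apart there.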

How the data were processed

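Levels in 36 samples were taken from the deposited table of log2 values, which the authors made with GCRMA per the submitters' processing notes. No source used here gives the GCRMA version. The tissues' distributions differ, and whether the tissues were normalised apart was not tested. Gene names came from the array annotation and RefSeq's annotation of GCF_034140825.1 (ASM3414082v1), from which only names and neighbours were taken. Where annotation gives 1 name to several genes (8 names), names were assigned so that each gene had 1, by elimination. The 187 control probe sets were left out.

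A mean for each of the 12 tissue-by-time groups was fitted to all 36 arrays with limma 3.58.1 in R 4.3.3 with empirical Bayes moderation, so that groups of 3 share 1 estimate of the spread. P-values were adjusted by Benjamini-Hochberg over 57194 rice probe sets, and a difference was called at an adjusted p below 0.05 and at least 1 log2 unit (for the F test over times, a range of group means of at least 1). The brightest probe set stood for a gene. Tables and plots used Python 3.11.15, pandas 2.3.3 and matplotlib 3.10.9. The method was tested on simulated data.

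Given in full are, in each family, the 3 called members with the largest 24 h change in each tissue, the 3 with the largest tissue difference at 24 h, and those whose 24 h changes differ with opposite signs. Pathway genes are named when called, at most 4 for a list and direction, and exceptions and other members by their counts. The members and lists were chosen with earlier results of these data known. Alternatives were replicate and harvest day blocks, 3 scalings, a trended robust fit, a filter on dim probe sets, no minimum fold, fits of the compared arrays alone, averaged probe sets, and leaving out each array. Replicates of a group correlated at 0.989 to 0.998. Same-numbered arrays of a tissue deviated together in some pairs only (correlations of -0.19 to 0.32 in endosperm and -0.09 to 0.47 in embryo). Still, 13 of 18 endosperm and 16 of 18 embryo arrays correlated best with their own number, so the numbers may mark shared material. The main fit did not pair samples by number, and the replicate block did. Protein and promoter sequences were not used here.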

Additional observations from a re-analysis of the deposited data

Results flagged for a closer look

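The members below had a 24 h change that differed between the tissues by the fitted difference of the changes itself (endosperm change minus embryo change, log2). The change in endosperm was the lower one for IAA12 (-6.33), IAA13 (-5.65), IAA31 (-3.98), IAA6 (-3.43), IAA14 (-3.32), IAA20 (-2.51), IAA23 (-1.94), IAA7 (-1.87), IAA30 (-1.66), IAA24 (-1.58), ARF10 (-1.81) and ARF9 (-1.09), all of which rose in embryo. IAA9 fell in both tissues, and further in endosperm (-1.46). The change in endosperm was the higher one for ARF2 (2.86), ARF24 (2.35) and IAA1 (1.69), which fell in embryo, and for ARF23 (1.36), which rose in endosperm. Adjusted p-values ran from 1.81e-13 (IAA14) to 0.00412 (IAA30). The endosperm levels of IAA6, IAA12, IAA14, IAA20, IAA23 and ARF10 were near the floor at both times, so a smaller change there could not be measured. Those of IAA7, IAA24 and IAA30 were near the floor at 0 h (means 2.78, 3.56 and 3.01), so their endosperm rises were not measured in full. No group has enough arrays for a test of single outlying samples.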

How the results depend on the processing

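All counts kept to within 1.5 times under the trended robust fit, the filter on dim probe sets (2 members drop out), averaged probe sets and either harvest day block. No harvest day held embryo arrays of 0 h together with those of 16 or 24 h. The block can reach these embryo differences only through other times, so day and time cannot be fully told apart there. A harvest day block within tissues gives no tissue difference, so a block shared by the tissues was added after seeing the data. The fit with a replicate block changed no call (16 members called in endosperm at 24 h, 23 in embryo, 28 between tissues at 24 h and 17 in the difference of changes, as without it). Of 18 arrays of a tissue, 13 in endosperm and 16 in embryo correlated best with their own number. Of 1110 recomputed member differences, 1051 kept their call and direction, 52 lost the call and 7 reversed. That total includes 111 with no minimum fold, which cannot lose a call by construction. Centring on the 75th percentile lost the call for 20 of 111 and reversed 3, and quantile normalization lost it for 16 and reversed 4. The reversals were between tissues: under 75th percentile centring ARF4 (0.043) and ARF16 (0.101) at 0 h and IAA15 (0.155) at 24 h, and under quantile normalization IAA15 (0.104), ARF4 (0.164) and ARF16 (0.249) at 0 h and IAA15 (0.147) at 24 h; the main values were between -1.17 and -1.06. Quantile normalization left 18 members called between tissues at 4 h (28 before), and gave 4 and 14, 6 and 16, 7 and 19, and 7 and 18 higher and lower at 4, 8, 12 and 16 h. Spike-in centring gave 1 and 29 at 12 h. Other splits that scaling moved were, under 75th percentile centring, 8 and 3 in embryo at 4 h, 10 and 5 at 8 h, and in endosperm 6 and 3 at 16 h, 1 and 3 between 4 and 12 h and 1 and 2 between 12 and 24 h, and under spike-in centring 1 and 5 and 6 and 0 in those last 2 endosperm comparisons. The cause was not tested beyond the shift each scaling makes by construction.

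With no minimum fold, by construction, more were called: in endosperm 13, 17, 19, 20 and 26 members at 4 to 24 h, 17 between 4 and 12 h, 16 between 12 and 24 h and 31 in the F test, and in embryo 24, 33, 32 and 34 at 4, 8, 12 and 16 h, 26 between 4 and 12 h and 20 between 12 and 24 h. With 6 arrays fitted alone, 1 member was called between 12 and 24 h in endosperm (4 before) and 1 in embryo (5 before). Leaving out single arrays gave 2 to 8 for this endosperm count and otherwise stayed within 1.5 times. Of 768 member differences without 1 array, 14 lost the call and none reversed. Those not named above were ARF4 at 0 h between tissues (-0.96 without embryo replicate 4 and -0.91 without endosperm replicate 1), ARF16 (-0.99 without embryo replicate 4), and IAA15 at 24 h (-0.99 without embryo replicate 5). Levels near the floor limit what can be measured for 5 Aux/IAA genes in all groups.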
